A study of Mus musculus with 2 samples.

Results

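The follicular helper genes and Il21 are 8 genes by which helper T cells of B cell follicles are recognised, namely Il21, Cxcr5, Il6ra, Sh2d1a, Bcl6, Ascl2, Pou2af1 and Il4i1. They were taken by gene symbol from the 54532 gene rows of the count table, where each symbol had 1 row. Of the 8 genes, 6 reached the 20 counts over both libraries that were required for a gene to be taken as measured. Ascl2 and Il4i1 did not. RNA of BDC-2.5 T cells was sequenced, CD4+ cells of the NOD mouse with a transgenic T cell receptor against pancreatic beta cells. In the 2.5HIP-PLG group, activated BDC-2.5 cells were transferred into NOD.scid mice, which were injected intravenously 1 day later with 1.75 mg of 2.5HIP-PLG. These are poly(lactide-co-glycolide) particles that carry 2.5HIP, a hybrid insulin peptide recognised by the BDC-2.5 receptor. The Untreated group consisted of NOD.scid recipients of the same cells without the particles. In both groups the cells had been activated before transfer, CD4+ effector cells without Foxp3-GFP signal were sorted on day 6 from lymph nodes and spleen, and cells of 4 mice were pooled and sequenced as 1 library, called a pool here.

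Follicular helper T cells enter B cell follicles by following the chemokine CXCL13 with the receptor CXCR5, and there they sustain germinal centres with interleukin 21 and contact signals. Their program depends on the repressor BCL6, which is opposed by BLIMP-1 and by interleukin 2 signalling through STAT5. Interleukin 6 and interleukin 21 signal through STAT3 and favour it. In the NOD mouse, interleukin 21 and its receptor are known to be needed for autoimmune diabetes. NOD.scid hosts lack mature B and T cells of their own.

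Total gene counts were 22580687 for the 2.5HIP-PLG pool and 26036669 for the untreated pool. Values are given as CPM, counts scaled to these totals, and 1 count was worth 0.0443 CPM in the 2.5HIP-PLG pool and 0.0384 CPM in the untreated pool. With 1 library per group there was no replicate check and no test across samples. Ratios divide the 2.5HIP-PLG value by the untreated one, and their exact 95% intervals account for the sampling of reads, not for differences between mice or between library preparations. Genes were called if they differed by at least 1.5-fold with an interval that left out 1. Counts of the 2.5HIP-PLG pool are also called treated, and those of the other pool untreated. The libraries also differed in composition, since 0.202% of counts in the 2.5HIP-PLG pool and 1.06% in the untreated pool fell on CT010467.1, a gene of ribosomal RNA, and 4 Y-linked genes together had 6.55 CPM in the 2.5HIP-PLG pool and 29.2 CPM in the untreated pool. Whether these differences bear on the values of single genes was not tested.

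Of the 6 measured genes, 5 were called higher in the 2.5HIP-PLG pool, where 5.15% of 13902 measured genes were called higher. These were Il21, Cxcr5, Pou2af1, Il6ra and Sh2d1a. Bcl6, the master regulator of the program, had a ratio above 1 that fell short of 1.5, and 0 of the 6 genes were called lower, against 9.7% of all measured genes. The difference was far larger for Il21, at 13.5-fold, than for the others, which lay between 1.45-fold and 2.23-fold. At a ratio of at least 2, Il21, Cxcr5 and Pou2af1 were called higher, 3 of the 6, where 2.78% of all measured genes were. The median log2 ratio of the 6 genes was 0.98, and that of all measured genes was -0.01. As the genes were chosen with earlier results of these data known, these counts are a description only. In bulk RNA, more cells that express a gene and more of its RNA per cell cannot be told apart.

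**Figure D1:**
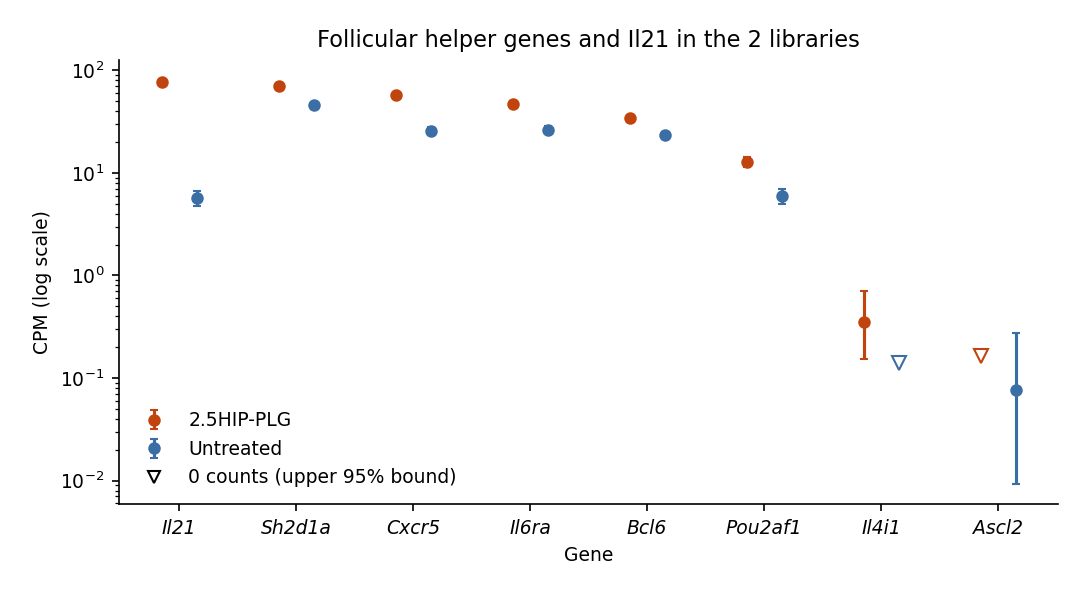
CPM of the 8 genes in the 2.5HIP-PLG pool (left point of each pair) and the untreated pool (right point), on a log axis. Bars are exact 95% Poisson intervals of the counts, and open triangles mark the upper bound of genes with 0 counts. Il21 stands at 76.4 CPM in the 2.5HIP-PLG pool and 5.65 CPM in the untreated pool, and Ascl2 and Il4i1 lie below 1 CPM in both.

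Il21 encodes the cytokine that follicular helper cells deliver to B cells. It had 1726 counts in the 2.5HIP-PLG pool and 147 in the untreated pool, or 76.4 CPM (95% Poisson interval 72.9 to 80.1) in treated and 5.65 CPM (4.77 to 6.64) in untreated cells. The ratio was 13.5 (11.4 to 16.1), and the intervals of both libraries were far apart. Among 11095 genes with a count sum of at least 100, this ratio ranked 7. The gene lies on chromosome 3 (37222759 to 37232636, minus strand, GRCm38), where the antisense gene Gm12534 overlaps it. Its expected counts were not whole, at 1725.7 with 2.5HIP-PLG and 146.85 without, but together with the counts of Gm12534 (2.3 treated and 0.15 untreated) they came to 1728 treated and 147 untreated counts. The reads shared with the antisense gene thus changed the ratio little, which was 13.6 (11.4 to 16.2) for the sum.

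The stretch of 250 bases before the RefSeq start of Il21 is shown because this gene carries the largest difference of the group. It lies at chr3:37232637-37232886 on the minus strand (GRCm38.p6) and is written 5′ to 3′, with capitals for matches to GGAAA, the core that NFAT factors of T cell receptor signalling bind.
Il21: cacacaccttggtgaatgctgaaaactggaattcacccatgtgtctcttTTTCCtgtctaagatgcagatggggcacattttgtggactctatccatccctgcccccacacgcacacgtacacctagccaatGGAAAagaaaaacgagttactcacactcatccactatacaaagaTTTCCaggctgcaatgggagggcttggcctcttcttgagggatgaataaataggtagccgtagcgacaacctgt
On either strand the core matched at 3 places, beginning 201, 118 and 74 bases before the start. It is a short motif, present in 55.7% of 32536 distinct upstream stretches of the same length from 27025 genes. The AP-1 motif TGANTCA, the STAT motif TTCNNNGAA, the octamer ATGCAAAT and the Bcl6 motif TTCCTNGAA had no match on either strand in this window. A match is a string of letters and was not tested for binding.

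The genes whose log2 ratios lay nearest to the 3.75 of Il21 among 10067 named genes with a count sum of at least 100 were Ank3, Synpo and Lag3, a likeness that rests on 2 libraries only. Ank3, which encodes a membrane-cytoskeleton linker, had 123 treated and 10 untreated counts and a log2 ratio of 3.76. Synpo, which encodes an actin-binding protein, had 1293 treated and 115 untreated counts and a log2 ratio of 3.69. Lag3, an inhibitory receptor, was less close, with 5946 counts in the 2.5HIP-PLG pool, against 329 in the untreated pool, and a log2 ratio of 4.38.

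Among helper cytokines, Il21 went with few others. Of 13 cytokine genes listed, 8 were measured. Calls went up for 3 of these, Il21 included, and down for 2, where 5.15% of all measured genes were higher and 9.7% lower. The median log2 ratio of the 8 was 0.07. Il10 (85 treated and 8 untreated counts) and Lif, a cytokine of the interleukin 6 family (294 treated and 142 untreated counts), were the other higher ones, at 12.3-fold (5.94 to 29.3) and 2.39-fold (1.95 to 2.94). Il17a had 6 counts in the 2.5HIP-PLG pool and 49 in the untreated pool and was 7.08-fold lower (3.03 to 20.2), and Csf2 was called lower, with 27 treated and 59 untreated counts. Ifng, the cytokine of type 1 helper cells, had 1947 treated and 2331 untreated counts and a ratio of 0.963 (0.906 to 1.02), and Tnf had 936 treated and 948 untreated counts (1.14, 1.04 to 1.25). Il4, which follicular helper cells can also make, had 0 treated and 2 untreated counts. Il21 made up 34.3% of the counts of the 13 genes in the 2.5HIP-PLG pool (33 to 35.6, exact binomial) and 3.97% in the untreated pool (3.36 to 4.65). Per kilobase of exon, the level of Il21 was 0.218 of that of Ifng in the 2.5HIP-PLG pool and 0.0155 in the untreated pool.

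**Figure D2:**
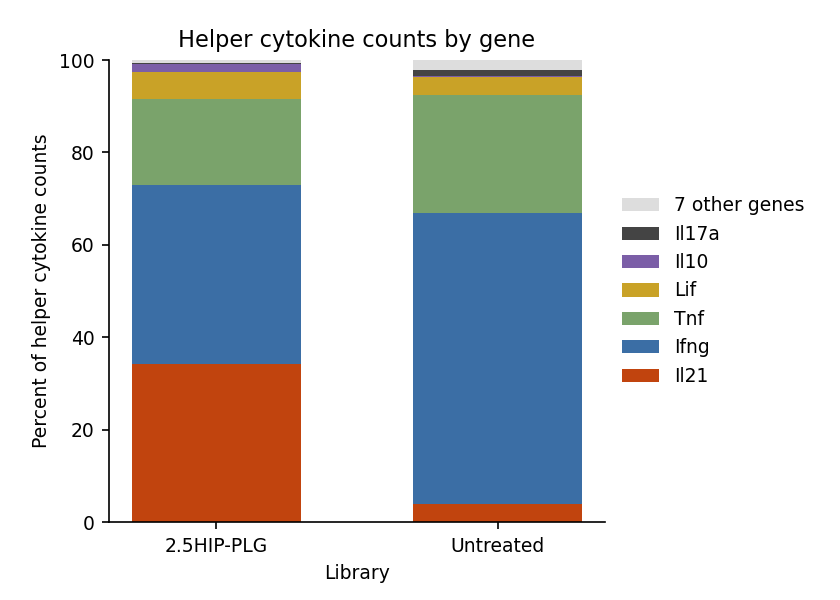
Share of the summed counts of 13 helper cytokine genes taken by each gene, in percent, in the 2.5HIP-PLG pool (5037 counts) and the untreated pool (3706 counts). Il21 takes 34.3% in the 2.5HIP-PLG pool and 3.97% in the untreated pool, and Ifng takes 38.7% with 2.5HIP-PLG and 62.9% without. Counts are not divided by gene length, so shares do not order levels between genes. Scaled by library total, Ifng had a ratio of 0.963.

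Cxcr5 encodes the receptor that leads T cells to B cell follicles. It had 1296 counts in the 2.5HIP-PLG pool and 671 in the untreated pool, or 57.4 CPM (54.3 to 60.6) in treated and 25.8 CPM (23.9 to 27.8) in untreated cells. It was 2.23-fold higher (2.03 to 2.45), and the intervals of both libraries did not overlap. The gene lies on chromosome 9 (44511787 to 44561877, minus strand). Bcl9l, on the opposite strand, overlaps its end by 110 bases and had 3515.82 treated and 5552.44 untreated counts, a ratio of 0.73 (0.70 to 0.762). Cxcr5 itself had whole counts in both libraries.

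Il6ra encodes the binding chain of the interleukin 6 receptor. It had 1068 counts in the 2.5HIP-PLG pool and 687 in the untreated pool (47.3 treated and 26.4 untreated CPM), a ratio of 1.79 (1.63 to 1.98). Il6st, which encodes the signalling chain gp130, had nearly the same ratio, 1.80 (1.66 to 1.95), with 1558 treated and 1000 untreated counts. It was the single gene called among the 12 measured genes of interleukin 6 and 21 receptor signalling, whose median log2 ratio was 0.10. Of all measured genes, 5.15% were called higher and 9.7% lower. The receptor of interleukin 21 itself, Il21r, had 3806 treated and 3815 untreated counts (1.15, 1.10 to 1.20), and Stat3 had 7772 treated and 7403 untreated counts (1.21, 1.17 to 1.25). The most abundant genes of this list were Jak1 (20568 treated and 26613 untreated counts; 0.891, 0.875 to 0.907) and Il2rg, the chain common to the receptors of several interleukins (16864 treated and 20645 untreated counts; 0.942, 0.923 to 0.961). Il6 had 1 count in each library. Il6ra lies on chromosome 3 (89864059 to 89913196, minus strand) and shares reads with the antisense gene Gm42809, which had 3.33 treated and 2.18 untreated counts.

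Sh2d1a encodes SAP, the adaptor by which receptors of the SLAM family recruit the kinase Fyn and hold T cells to B cells. It had 1584 counts in the 2.5HIP-PLG pool and 1202 in the untreated pool, or 70.2 CPM (66.7 to 73.7) in treated and 46.2 CPM (43.6 to 48.9) in untreated cells. Its ratio of 1.52 (1.41 to 1.64) stood at the limit for a call. Tenm1 overlaps the gene on the X chromosome (Sh2d1a 42502453 to 42529330, plus strand) and had 0 treated and 5.08 untreated counts, and with these added the ratio was 1.51 (1.40 to 1.63). Over all measured genes, 5.15% were called higher and 9.7% lower. Among 9 measured genes of the SLAM family and of partners of SAP, 2 were called higher and 0 lower, the median log2 ratio being 0.25. They were Slamf6, a SLAM receptor of helper T cells (9734 treated and 5859 untreated counts; 1.92, 1.85 to 1.98), and Fyn (20318 treated and 14946 untreated counts; 1.57, 1.54 to 1.60). The related receptors Slamf1 (0.994, 0.938 to 1.05), Cd84 (1.20, 1.16 to 1.25) and Ly9 (1.19, 1.15 to 1.23) were not called. Prkcq, a kinase downstream of the T cell receptor and the second most abundant gene of the list, had 8631 treated and 9426 untreated counts (1.06, 1.02 to 1.09).

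Bcl6 encodes the transcriptional repressor without which follicular helper cells do not form. It had 766 counts in the 2.5HIP-PLG pool and 608 in the untreated pool, or 33.9 CPM (31.6 to 36.4) in treated and 23.4 CPM (21.5 to 25.3) in untreated cells. The ratio of 1.45 (1.304 to 1.619) left out 1 and did not reach 1.5, so Bcl6 lay just outside the call and Sh2d1a just inside it. The gene lies on chromosome 16 (23965052 to 23988852, minus strand), and Gm37419, which overlaps its start, had 0 counts in both libraries. Of 8 corepressors of Bcl6 and partners of Pou2af1, 7 were not called, among them the abundant corepressor genes Ncor1 (10083 treated and 13439 untreated counts; 0.865, 0.843 to 0.888) and Ctbp1 (5408 treated and 6119 untreated counts; 1.02, 0.982 to 1.06). Pou2f2, a partner of Pou2af1, was called higher. Of all measured genes, 5.15% were called higher and 9.7% lower, so most genes were likewise not called. The median log2 ratio of these 8 was -0.05.

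RefSeq gives Bcl6 a pair of starts, and the 250 bases before each are shown because Bcl6 is known to bind its own gene and to respond to STAT factors. Both are on the minus strand of chromosome 16 (GRCm38.p6), the distal one at chr16:23988853-23989102 and the proximal one at chr16:23981284-23981533, inside an intron of the GENCODE model. Capitals mark matches to GGAAA, TTCNNNGAA or TTCCTNGAA, which can overlap.
Bcl6 distal: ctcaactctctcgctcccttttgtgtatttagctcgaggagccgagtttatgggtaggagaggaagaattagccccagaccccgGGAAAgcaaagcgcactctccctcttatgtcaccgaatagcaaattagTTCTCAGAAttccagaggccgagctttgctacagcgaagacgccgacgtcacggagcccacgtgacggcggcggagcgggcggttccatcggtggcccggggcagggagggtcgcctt
Bcl6 proximal: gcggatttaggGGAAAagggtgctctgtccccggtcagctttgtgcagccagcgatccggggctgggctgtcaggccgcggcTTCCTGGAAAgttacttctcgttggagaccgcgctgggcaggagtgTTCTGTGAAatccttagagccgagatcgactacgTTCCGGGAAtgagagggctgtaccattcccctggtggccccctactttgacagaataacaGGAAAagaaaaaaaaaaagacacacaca
The STAT motif TTCNNNGAA, present in 7.04% of all upstream stretches, matched once before the distal start, beginning 118 bases away, and at 3 places before the proximal start, beginning 168, 122 and 88 bases away. The match at 168 bases is also the only one to the Bcl6 motif TTCCTNGAA, which 1.32% of stretches hold, and it overlaps a match to GGAAA. Of the 8 genes, 6 were matched in the RefSeq promoter table, all but Cxcr5 and Sh2d1a. Il6ra, Pou2af1 and Ascl2 had no match to any of these motifs, to AP-1 (6.73% of stretches) or to the octamer (1.62%), and Il4i1 had 1 match to GGAAA. The E-box CANNTG, which 66.2% of stretches hold, was found before at least 1 start of each of the 6.

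Pou2af1 encodes OCA-B, a coactivator of the octamer-binding factors Oct1 and Oct2 that is best known from B cells. It had 289 counts in the 2.5HIP-PLG pool and 154 in the untreated pool, or 12.8 CPM (11.4 to 14.4) in treated and 5.92 CPM (5.02 to 6.93) in untreated cells. It was 2.16-fold higher (1.77 to 2.65), with intervals that did not overlap. Its counts were whole, and Gm47828, inside an intron on chromosome 9 (Pou2af1 51213708 to 51240080, plus strand), had 0 counts in both libraries. Pou2f2, the gene of Oct2, was higher too, with 2344 treated and 1647 untreated counts (1.64, 1.54 to 1.75), whereas Pou2f1, the gene of Oct1, had 558 treated and 854 untreated counts (0.753, 0.676 to 0.839) and was not called.

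Ascl2 and Il4i1 were close to absent. Ascl2 encodes a basic helix-loop-helix factor that can induce Cxcr5 in mouse T cells, and it had 0 counts in the 2.5HIP-PLG pool and 2 in the untreated pool, both within the 3 counts that a count of 0 allows. No fold is given for it. Of its dimer partners and the Id proteins that bind such partners, 5 of 7 genes were measured. Id3 was higher (436 treated and 169 untreated counts; 2.98, 2.48 to 3.57), and Id2 (7053 treated and 10879 untreated counts; 0.748, 0.725 to 0.770) and the E protein gene Tcf3 (3964 treated and 5354 untreated counts; 0.854, 0.819 to 0.890) were not called. The median log2 ratio of these 5 genes was -0.23. Of all measured genes, 5.15% were called higher and 9.7% lower.

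Il4i1 encodes a secreted enzyme that oxidises phenylalanine and other amino acids. It had 7.76 expected counts in the 2.5HIP-PLG pool and 0 in the untreated pool, where a count of 0 allows up to 3 counts, and no fold is given for it. The gene lies on chromosome 7 (44816387 to 44840809, plus strand), and its first part runs inside Nup62 on the same strand, while Tbc1d17 and Atf5 overlap it on the other strand. Nup62 had 2252.55 treated and 2063 untreated counts, and the 4 genes together had 3396 treated and 3384 untreated counts (1.16, 1.10 to 1.21). The few counts of Il4i1 could therefore not be told apart from reads of its neighbours.

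**Figure D3:**
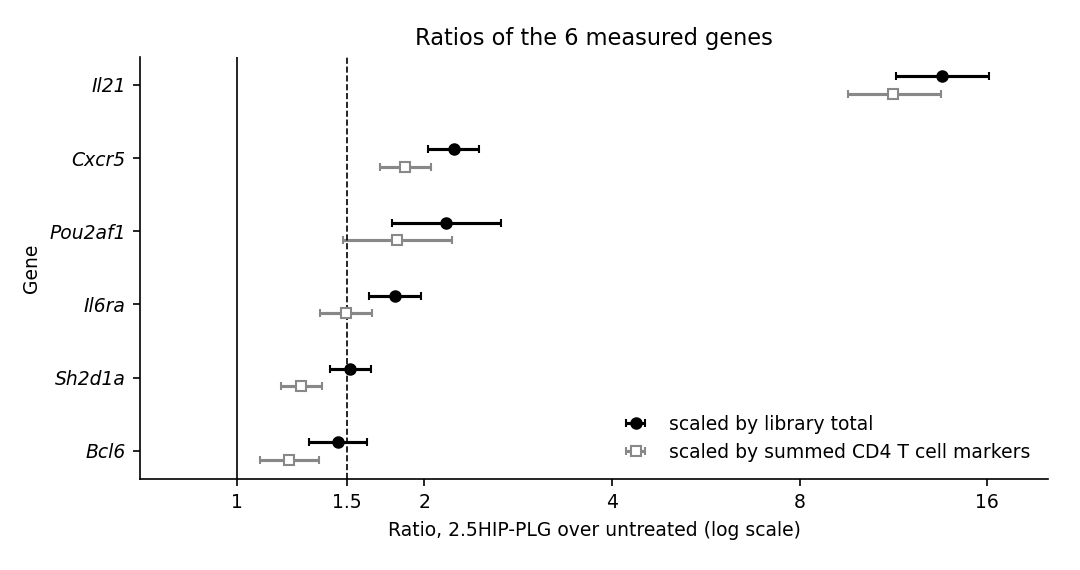
Ratio of the 2.5HIP-PLG over the untreated pool for the 6 measured genes, on a log axis, with exact 95% intervals for counting error. Filled circles are scaled by library total and open squares by the summed counts of 12 CD4 T cell markers; the dashed line is the 1.5 needed for a call. Il21 lies beyond 11 under both, and Sh2d1a and Il6ra cross the dashed line between them.

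Levels of different genes can be set side by side only per length, and the unit used is CPM per kilobase of exon. Exon length joined all annotated exons of a gene and not only those of the transcripts expressed. The intervals cover counting error alone, so the order of genes also rests on these lengths. In the 2.5HIP-PLG pool the order was Cxcr5 at 17.2 (16.3 to 18.2), Il21 at 14.5 (13.9 to 15.2) and Sh2d1a at 12.7 (12.1 to 13.4), with intervals that did not overlap. Il6ra at 5.47 (5.15 to 5.81), Bcl6 at 5.06 (4.71 to 5.43) and Pou2af1 at 5.02 (4.46 to 5.63) followed and were not separated by their intervals. In the untreated pool Sh2d1a at 8.39 (7.92 to 8.87) and Cxcr5 at 7.73 (7.16 to 8.34) came first with overlapping intervals. Bcl6 at 3.48 (3.21 to 3.77), Il6ra at 3.05 (2.83 to 3.29), Pou2af1 at 2.32 (1.97 to 2.72) and Il21 at 1.07 (0.907 to 1.26) followed. In this unit Il21 was the second of the 6 in level with 2.5HIP-PLG and the lowest without. Among 21918 protein-coding genes ranked by this level, Il21 stood in the top 15.1% in the 2.5HIP-PLG pool and the top 44.0% in the untreated pool. Bcl6 stood in the top 30.0% with 2.5HIP-PLG and the top 34.5% without.

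The wider list of follicular helper genes held 20 others, of which 18 were measured. Calls went up for 11 of these and down for 1, where 5.15% of all measured genes were higher and 9.7% lower, and the median log2 ratio was 0.74. The list was chosen with earlier results of these data known, so these counts are a description only. Id3 was among the 11 and was also counted with the Id proteins above. The largest differences were those of Angptl2 (801 treated and 116 untreated counts; 7.96, 6.55 to 9.76), a secreted angiopoietin-like protein, and of Tox, a nuclear factor of chronically stimulated T cells (5400 treated and 911 untreated counts; 6.83, 6.37 to 7.34). Cd200, a surface protein that restrains myeloid cells, followed with 2457 treated and 451 untreated counts (6.28, 5.68 to 6.96), and Rgs16, a regulator of G protein signalling, with 3364 treated and 644 untreated counts (6.02, 5.53 to 6.56). Several of these genes are also known from anergic or exhausted T cells, and Irf4 and Batf from T cell activation. Among regulators of the helper program, Irf4 was 3.38-fold higher (3.18 to 3.60), Maf, which drives Il21, 1.61-fold (1.55 to 1.67) and Batf 1.60-fold (1.49 to 1.71). Of the same list 6 genes were not called, among them Lef1 (1.01, 0.968 to 1.06) and S1pr2 (0.998, 0.875 to 1.14). The costimulatory receptor gene Icos had 5453 treated and 4256 untreated counts (1.48, 1.42 to 1.54) and was not called. Pdcd1, which encodes the receptor PD-1, was 5.58-fold higher (5.17 to 6.02), and the receptor gene Btla 2.33-fold (2.16 to 2.52). The one gene called lower was Cd40lg, whose product gives contact help to B cells, with 1218 treated and 2174 untreated counts (1.55-fold lower, 1.44 to 1.66). Tcf7, which acts upstream of Bcl6 (18161 treated and 16574 untreated counts; 1.26, 1.24 to 1.29), and the abundant surface marker Thy1 (27674 treated and 36784 untreated counts; 0.867, 0.854 to 0.881) were not called.

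Of 15 genes listed as opponents of the follicular helper program, 2 were called lower, a share near the 9.7% of all measured genes, and 0 higher. The list joins genes by label, and their roles in these cells were not tested. Their median log2 ratio was -0.07. Il7r, the receptor for interleukin 7, had 3176 counts in the 2.5HIP-PLG pool and 10814 in the untreated pool (2.95-fold lower, 2.84 to 3.07). Gpr183, the oxysterol receptor EBI2, which guides cells within lymphoid tissue, had 180 treated and 538 untreated counts (2.59-fold lower, 2.19 to 3.09). Prdm1, which encodes BLIMP-1, the direct antagonist of BCL6, had 920 treated and 902 untreated counts (1.18, 1.07 to 1.29). Il2ra, the high-affinity chain of the interleukin 2 receptor, had 812 treated and 1358 untreated counts (0.689, 0.631 to 0.753), just short of a call. The most abundant genes of this list were Il2rb (29034 treated and 27450 untreated counts; 1.22, 1.20 to 1.24) and Selplg (16728 treated and 25695 untreated counts; 0.751, 0.736 to 0.765), and neither was called.

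**Figure D4:**
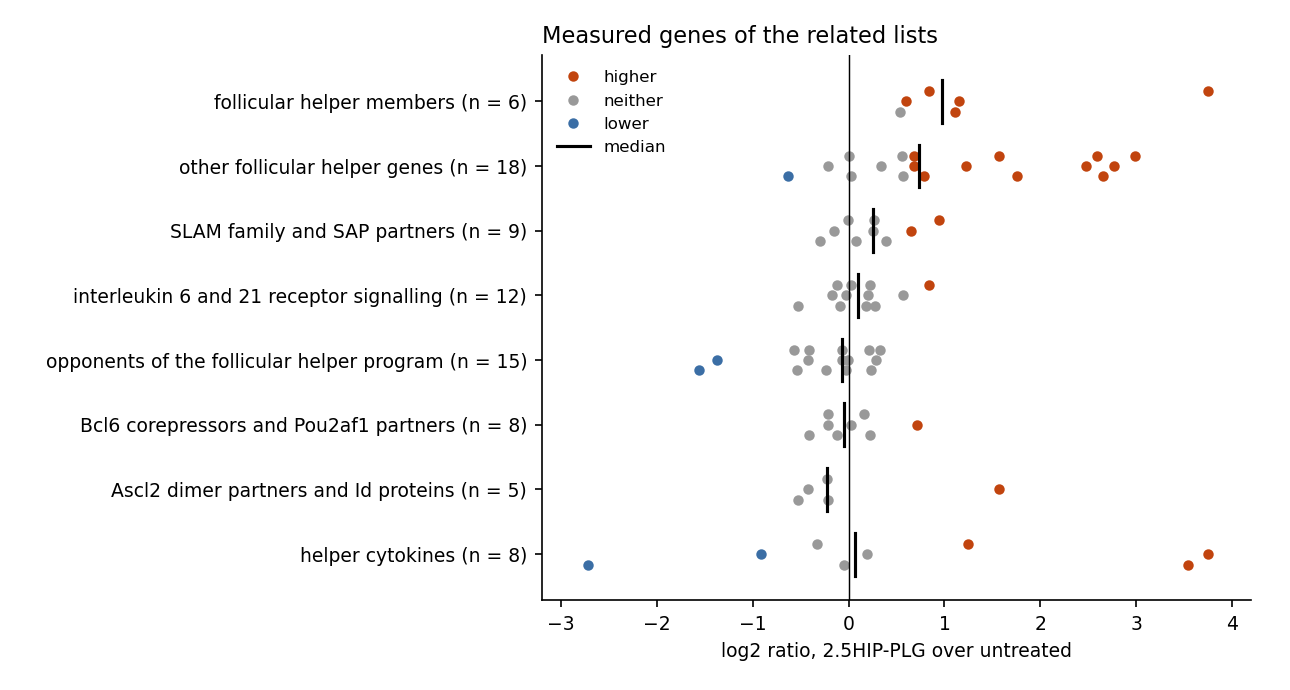
log2 ratio (2.5HIP-PLG over untreated) of each measured gene of the 8 genes and of 7 related lists, coloured by call, with the median of each list as a bar. The 6 measured follicular helper genes all lie above 0, with a median of 0.98, and the genes listed as opponents of the program have a median of -0.07.

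**Figure D5:**
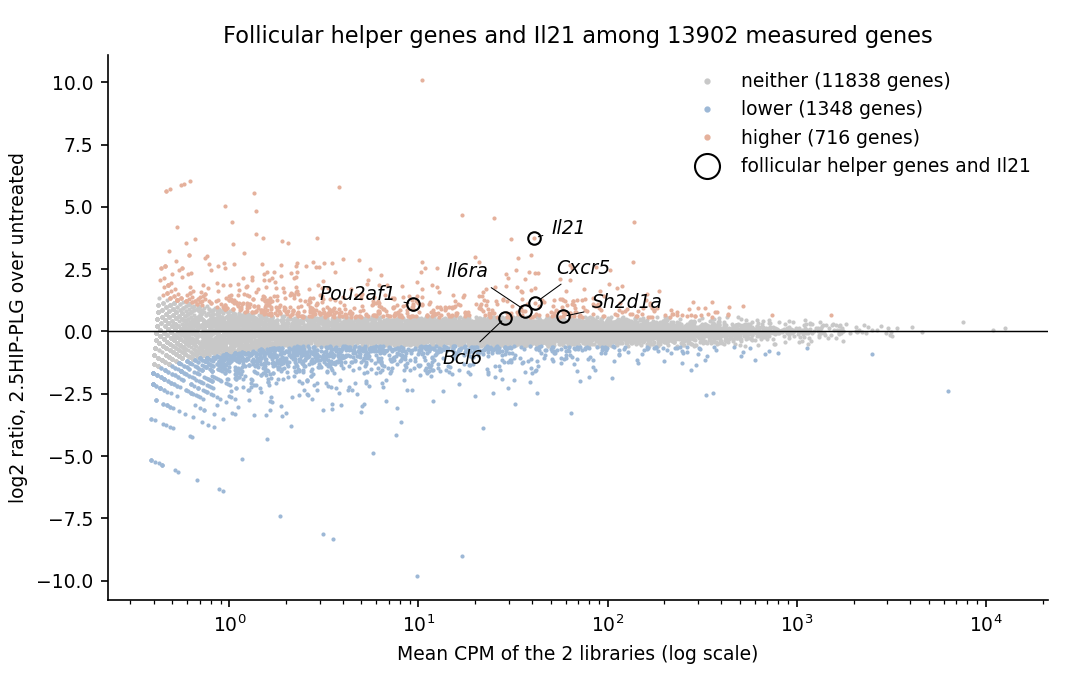
log2 ratio against mean CPM of the 2 libraries (log axis) for 13902 measured genes, of which 716 were called higher and 1348 lower. The 6 measured follicular helper genes are circled; Il21 lies at 3.75, and Bcl6 and Sh2d1a lie on either side of the limit for a call.

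T cell identity was shared by both libraries. All 12 CD4 T cell markers were detected and 0 were called, although 11 had a log2 ratio above 0, with a median of 0.34. By the same limits 5.15% of all measured genes were higher and 9.7% lower. Cd4 had 41743 treated and 39739 untreated counts, Lck had 26506 treated and 29851 untreated counts, and Trac had 24327 treated and 21638 untreated counts. Scaled by the sum of these markers in place of the library total, every log2 ratio became lower by 0.26. On that scale Il21 was 11.3-fold higher (9.55 to 13.5), Cxcr5 1.86-fold (1.69 to 2.04) and Pou2af1 1.81-fold (1.48 to 2.21), whereas Il6ra at 1.497 (1.36 to 1.65) and Sh2d1a at 1.27 (1.18 to 1.37) were no longer called. Over all measured genes, 407 were called higher and 2504 lower on that scale, where the library total gave 716 higher and 1348 lower.

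Bcl6, Cxcr5, Pou2af1 and Il4i1 are also expressed by B cells. For the calls among markers, the shares over all measured genes were 5.15% higher and 9.7% lower. Of 16 B cell markers, 8 had at most 3 counts in each library, and Ms4a1 and Fcer2a had 0 in both. Pax5 had 1 treated and 6 untreated counts, and Cd79a had 2 treated and 3 untreated counts. The summed level was nevertheless 186 CPM in the 2.5HIP-PLG pool and 113 CPM in the untreated pool, with 2 of 4 measured markers higher, nearly all of it from Ighm (3761 treated and 2641 untreated counts; 1.64, 1.56 to 1.73) and Cd22 (389 treated and 228 untreated counts; 1.97, 1.67 to 2.33). Ighd came next with 13 treated and 10 untreated counts.

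Il6ra and Il4i1 are also expressed by myeloid cells. The marker calls given here stand beside 5.15% higher and 9.7% lower over all measured genes. Macrophage and monocyte markers had a summed level of 26.1 CPM in the 2.5HIP-PLG pool and 23.5 CPM in the untreated pool, with 3 of 7 measured genes higher, and were led by Itgam (219 treated and 325 untreated counts), Cd68 (107 treated and 96 untreated counts) and Lyz2 (101 treated and 47 untreated counts). Dendritic cell markers had 70.8 treated and 99.1 untreated CPM, with 1 of 7 lower, and were led by Cd74 (1042 treated and 1541 untreated counts), H2-Aa (173 treated and 264 untreated counts) and Itgax (108 treated and 320 untreated counts). Neutrophil markers had 14.2 treated and 4.03 untreated CPM, with 2 of 3 higher, chiefly Mpo (237 treated and 57 untreated counts), Elane (31 treated and 9 untreated counts) and Ly6g (14 treated and 11 untreated counts). Only these 3 of the 9 neutrophil markers were measured. Below the limit were, among others, S100a8 (10 treated and 8 untreated counts), S100a9 (10 treated and 9 untreated counts) and Csf3r (9 treated and 1 untreated counts). Mast cell and basophil markers had 32.1 treated and 22.8 untreated CPM, with 4 of 6 higher, led by Kit (292 treated and 471 untreated counts), Prss34 (199 treated and 54 untreated counts) and Mcpt8 (116 treated and 22 untreated counts). NK cell markers had 51.1 treated and 32.6 untreated CPM, with 3 of 6 higher and 2 lower, led by Eomes, which T cells express too (735 treated and 360 untreated counts), Klre1 (211 treated and 308 untreated counts) and Ncr1 (54 treated and 96 untreated counts). Of the CD8 T cell markers, Cd8a had 0 treated and 9 untreated counts, and Cd8b1 had 304 treated and 272 untreated counts. The part of such cells in the values of the follicular helper genes was not tested.

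Follicular regulatory T cells share Bcl6 and Cxcr5 with follicular helper cells and express Foxp3, whose reporter was used to leave out regulatory cells. Of 5 listed regulatory T cell markers, all 4 that were measured were higher in the 2.5HIP-PLG pool, where 5.15% of all measured genes were. The summed level of the 5 listed markers was 113 CPM in the 2.5HIP-PLG pool, against 44.4 CPM in the untreated pool. Outside the list, Ikzf4 and Il2ra, also known from regulatory T cells, were not higher. Ikzf4 was called lower, with a log2 ratio of -0.599, and Il2ra had a ratio of 0.689 (0.631 to 0.753) and was not called. Foxp3 had 1157 treated and 389 untreated counts (3.43, 3.05 to 3.86), rounded from estimates that were not whole. Ikzf2 had 1310 treated and 741 untreated counts (2.04, 1.86 to 2.23), and Gpr83 had 34 treated and 17 untreated counts. The part of these transcripts in the values of the follicular helper genes was not tested.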

How the data were processed

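One library each of 2.5HIP-PLG-treated and untreated recipients was compared, grouped by the treatment label. Per the labels' protocols, mRNA libraries were made with a NuGen Universal Plus kit. Per the submitters' processing notes, STAR and RSEM 1.3.1 were used with GRCm38. Annotation, strand setting and filters are not given in these sources, so overlapping and antisense genes are uncertain. The authors deposited expected counts, estimates that divide reads among genes and were not scaled between libraries. Rows that were not whole made up 11.1% of the 2.5HIP-PLG column and 11.8% of the untreated column.

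Counts were rounded and scaled by library total. Ratios got exact conditional binomial (Clopper-Pearson) 95% intervals in Python 3.11.15 with scipy 1.17.1. Intervals and the floor of 3 counts cover counting error only. log2 ratios have 0.5 counts added. The ratio calculation was tested on simulated Poisson counts without variation between mice or libraries. That checks the arithmetic and not the calls in these pools. Exon lengths and coordinates came from GENCODE M21 (GRCm38), which held 54409 of 54532 row IDs, and promoter sequences from RefSeq (GRCm38.p6). Other scalings used edgeR 4.0.16 and DESeq2 1.42.0 in R 4.3.3, and figures matplotlib 3.10.9.

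The genes, the related lists and the marker lists were chosen with earlier results of these data known. The text names all 8 genes, the called genes with the largest ratios (up to 4) and the 2 most abundant genes of each related list, the 3 most abundant markers of each type and markers at 0 counts in both libraries, genes that overlap the 8, and the 3 nearest to Il21 in log2 ratio. Csf2, Il4, Il6, Il21r, Stat3, Slamf1, Cd84, Ly9, Pou2f1, Irf4, Maf, Batf, Lef1, S1pr2, Icos, Cd40lg, Prdm1, Il2ra, Pax5, Cd79a, CT010467.1 and the Y-linked genes were chosen after their values were seen. So were Pdcd1, Btla, Ikzf4, S100a8, S100a9 and Csf3r.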

Additional observations from a re-analysis of the deposited data

How the results depend on the processing

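With 1 library per group no replicate could be left out, and depth limits Ascl2 and Il4i1, whose counts can show neither a level nor a difference. With TMM, DESeq2, upper quartile or a total without the 20 most abundant genes as scaling, unrounded counts, a 99% interval or a minimum of 10 or 100 counts, the same 5 genes were called higher, and 0 were lower under any setting. Scaling by CD4 T cell markers left 3 of 6 higher, where 2.93% of all measured genes were higher on that scale. The log2 ratios were then 0.34 for Sh2d1a and 0.58 for Il6ra. Which of the scales is the better one was not tested. A ratio of at least 2 also left 3, dropping Sh2d1a (0.60) and Il6ra (0.84). Among the 3 genes with whole counts, 2 were higher, and the share over all genes with whole counts was not computed. With no count minimum 6 of 8 passed the limits for higher. The gene added was Il4i1, on 8 rounded treated and 0 untreated counts that could not be told apart from reads of its neighbours. The share over all genes was not computed for that setting, so nothing is read from this count. The median log2 ratio of the genes ranged from 0.72 to 1.11. Of 140 recomputed counts of the related lists, 127 stayed within 1.5 times. With CD4 T cell marker scaling, 6 of the 15 genes listed as opponents were lower. That scaling, which lowers every log2 ratio by 0.26, made 18% of all measured genes lower, against 9.7% with the library total. Summing genes with those that overlap them, an alternative chosen after seeing the data, changed no call among Il21, Sh2d1a and Il6ra.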
